A study of Mus musculus with 24 samples.

Results

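Expression of 9 glucocorticoid-responsive genes was examined in mouse kidney after myocardial infarction (MI). The genes are Fkbp5, Tsc22d3, Zbtb16, Nr3c1, Klf9, Errfi1, Hsd11b1, Mt1 and Mt2. They make up 9 of the 56941 genes in the deposited count table, and all 9 were among the 12780 genes with enough counts to be tested. They were chosen by name with their measured values in these same kidneys already known. Their differences between groups are therefore given as a description, with no p printed for any of them. Young adult male C57BL/6J wild-type mice had the left anterior descending coronary artery tied off permanently, and kidneys were taken at 5d or 28d post-MI. Which part of a kidney went into the RNA is not given in the sources used here. Sham mice had the operation without ligation and were all collected 5d after surgery, so that both times were compared with the same sham kidneys. All mice, sham mice included, received isoflurane and buprenorphine at surgery and underwent a hemodynamic measurement before the organs were removed. Counts could be assigned to 22 of 24 kidneys, of which 8 were sham kidneys, 8 were taken at 5d and 6 at 28d.

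Glucocorticoids are steroid hormones of the adrenal cortex, released in a daily rhythm and under stress. They bind the glucocorticoid receptor, encoded by Nr3c1, which waits in the cytoplasm in a complex with heat shock proteins and then enters the nucleus to switch genes on or off. In the kidney the hormone acts on tubular transport and metabolism, and its local level is set by a pair of enzymes, one that regenerates the active steroid (Hsd11b1) and one that inactivates it (Hsd11b2). Fkbp5 encodes a co-chaperone that lowers the receptor's affinity for hormone. Tsc22d3 encodes GILZ, an anti-inflammatory leucine zipper protein. Zbtb16 and Klf9 encode transcription factors, Errfi1 encodes an inhibitor of the EGF receptor, and Mt1 and Mt2 encode metallothioneins, small proteins that bind zinc and copper and are induced by metals as well as by glucocorticoids.

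Promoter sequences, chosen among a gene's windows for the motifs they hold, are shown for genes whose levels rose and fell together across kidneys, Fkbp5 with Tsc22d3 and Sgk1, and Mt1 with Mt2. Sgk1, a kinase that raises sodium reabsorption, is not one of the 9 genes and is shown as a further known target. It has 6 windows, and the one shown holds the palindrome core. Cdkn1c and Glul, further targets that were more like Fkbp5 across kidneys than Sgk1 was, are not shown. The windows are RefSeq sequences of GRCm38.p6 that run from 250 bases before to 50 bases after an annotated start. Windows were found for 7 of the 9 genes, and Zbtb16 and Nr3c1 are named only. Capitals mark matches, on either strand, to the receptor site AGAACA, to the receptor palindrome core GNACANNNTGTNC, to the metal response core TGCACNC or TGCGCNC, and to the E-box CACGTG, the element read by clock proteins. The AGAACA site and the core can overlap each other.
Fkbp5, chr17:28486100-28486399, minus strand: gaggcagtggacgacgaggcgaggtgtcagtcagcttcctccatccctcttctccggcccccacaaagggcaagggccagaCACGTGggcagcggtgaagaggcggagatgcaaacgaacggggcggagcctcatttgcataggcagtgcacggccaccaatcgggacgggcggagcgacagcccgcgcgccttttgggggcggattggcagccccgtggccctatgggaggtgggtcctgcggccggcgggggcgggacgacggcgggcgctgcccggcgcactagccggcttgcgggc
Tsc22d3, the second of its windows, chrX:140600473-140600772, minus strand: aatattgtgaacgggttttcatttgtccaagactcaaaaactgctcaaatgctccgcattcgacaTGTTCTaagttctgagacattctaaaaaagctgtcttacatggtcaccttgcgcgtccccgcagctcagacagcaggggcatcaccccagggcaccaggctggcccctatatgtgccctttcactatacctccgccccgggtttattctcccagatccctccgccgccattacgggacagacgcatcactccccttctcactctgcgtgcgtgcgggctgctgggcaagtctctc
Sgk1, the fifth of its windows, chr10:21993640-21993939, plus strand: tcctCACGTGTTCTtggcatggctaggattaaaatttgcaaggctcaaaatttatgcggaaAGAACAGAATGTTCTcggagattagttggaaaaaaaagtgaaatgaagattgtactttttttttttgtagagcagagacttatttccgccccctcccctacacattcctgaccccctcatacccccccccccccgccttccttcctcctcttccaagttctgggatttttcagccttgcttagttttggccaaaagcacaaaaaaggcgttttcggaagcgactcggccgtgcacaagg
Mt1, chr8:94178839-94179138, plus strand: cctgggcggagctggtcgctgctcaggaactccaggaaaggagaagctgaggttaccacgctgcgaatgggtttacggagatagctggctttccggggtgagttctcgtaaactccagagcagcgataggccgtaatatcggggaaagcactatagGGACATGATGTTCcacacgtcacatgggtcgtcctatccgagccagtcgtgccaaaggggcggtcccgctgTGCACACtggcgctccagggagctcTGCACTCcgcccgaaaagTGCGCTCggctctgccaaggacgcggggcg
Mt2, chr8:94172368-94172667, plus strand: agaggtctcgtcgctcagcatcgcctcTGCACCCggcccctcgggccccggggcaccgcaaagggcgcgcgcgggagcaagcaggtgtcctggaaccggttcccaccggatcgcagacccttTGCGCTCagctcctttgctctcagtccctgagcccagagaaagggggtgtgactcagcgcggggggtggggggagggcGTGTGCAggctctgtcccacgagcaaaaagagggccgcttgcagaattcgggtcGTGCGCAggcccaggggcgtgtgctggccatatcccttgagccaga

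The Fkbp5 window held 1 E-box and no receptor motif. It lies inside the annotated gene, which extends upstream to 28517527, and which start the kidneys used was not tested. The Tsc22d3 window shown held 1 AGAACA site and is the only one of its 3 windows with any match. It lies at the most upstream start of these 3 windows, though the annotated gene extends further, to 140600659. Which start the kidneys used was not tested for Tsc22d3 either. The Mt1 window held 1 receptor palindrome core and 3 metal response cores. The Mt2 window held 4 metal response cores. The Sgk1 window held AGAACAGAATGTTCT, which is the AGAACA site on both sides of 3 bases, and a further AGAACA site that overlaps its E-box. Of 32851 promoter windows searched, 19% held the AGAACA site, 0.475% the palindrome core, 25.7% the metal response core and 7.15% the E-box. The AGAACA site on both sides of 3 bases was present in 3 windows. In any window, 1 of the 7 genes and 5 of 34 other glucocorticoid targets held the AGAACA site. The palindrome core was held by 1 of the 7 and 3 of the 34, the metal response core by 3 and 12, and the E-box by 1 and 8. A gene can have several windows, so these counts of genes are not on the same footing as the shares of windows. Differences between them were not tested. A match is a description of letters in this window only.

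Expression was measured by Massive Analysis of cDNA Ends (MACE), which reads the 3′ ends of polyadenylated mRNA and counts molecules by unique molecular identifiers. Total counts per kidney ranged from 2280618 to 3786275, with a median of 2889944. Levels are given as CPM, counts scaled to a common library size, after TMM normalization. The smallest count of the 9 genes was 2, for Zbtb16 in a kidney at 5d post-MI, and Fkbp5 had between 78 and 620 counts. Intervals and standard errors here cover the spread between kidneys and not the loss of molecules before counting. In RNA from kidney tissue, fewer cells of a type and less RNA per cell cannot be told apart. The proximal tubule marker Slc34a1 was at 3207 CPM or more in every kidney, and the tubular marker Umod was at 643 CPM or more in every kidney. The adrenal cortex genes Cyp11b1, Cyp11a1 and Cyp21a1 were at 0 counts in 18, 12 and 14 of 22 kidneys. The summed level of 11 adrenal cortex genes was 1111 CPM in sham replicate 2, 882 CPM in sham replicate 6 and 119 CPM in 5d replicate 5, against 15.4 to 30.2 CPM in the other kidneys. These 3 kidneys were left out in a fit added after their values were seen, and without them Mt2 at 5d against sham had a log2 fold change of −0.10 in place of 0.03. The summed level of 10 adipocyte genes differed by a log2 of −0.66 at 5d (exact permutation test, two-sided, adjusted p = 0.432) and −1.05 at 28d (exact permutation test, adjusted p = 0.101) against sham. None of the 9 genes was called with or without this sum as a covariate, so the calls cannot show its part in the members' values. That part was not tested.

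The level of Fkbp5 was on average higher at both times post-MI than in sham kidneys, with wide spread and with 1 kidney at 5d far above all others. Its level was 26.9 CPM in the lowest sham kidney, 50.4 CPM at the sham median and 67.1 CPM in the highest sham kidney. At 5d post-MI the lowest kidney had 38.1 CPM, the median was 68.3 CPM and the highest kidney, 5d replicate 9, had 189 CPM. At 28d post-MI the range was 29.2 to 78.4 CPM with a median of 75.0 CPM. The groups overlapped, but 5 of 8 kidneys at 5d and 4 of 6 kidneys at 28d lay above every sham kidney. The mean was 48.3 ± 12.9 CPM in sham (SD, n = 8), 77.6 ± 47.7 CPM at 5d (SD, n = 8) and 63.2 ± 21.2 CPM at 28d (SD, n = 6). The log2 fold change against sham was 0.69 (SE 0.30) at 5d and 0.39 (SE 0.33) at 28d, and 28d against 5d it was −0.30 (SE 0.32). Without 5d replicate 9, the 5d mean was 61.7 ± 16.7 CPM (SD), the log2 fold change at 5d was 0.35, and 28d against 5d became 0.04. Fkbp5 lies on chromosome 17, from 28399094 to 28517527 on the minus strand (GRCm38, GENCODE M21). The strand setting of the counting is not given in the sources used here, and the overlapping gene AC154912.3 had at most 39 counts in a kidney.

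Tsc22d3 followed a similar order across kidneys. Its level ran from 45.8 CPM through a median of 82.9 CPM to 132 CPM in sham kidneys. At 5d post-MI it ran from 58.3 CPM through 101 CPM to 290 CPM, again highest in 5d replicate 9, where the next kidney of the group had 146 CPM. At 28d post-MI it ran from 49.0 CPM through 118 CPM to 208 CPM. All 3 groups overlapped, with 2 kidneys of each MI group above every sham kidney. Against sham the log2 fold change was 0.44 (SE 0.35) at 5d and 0.59 (SE 0.38) at 28d. Without 5d replicate 9 the value at 5d was 0.09, and the 5d mean was 92.9 ± 33.0 CPM (SD) beside 86.9 ± 32.7 CPM (SD, n = 8) in sham. For 28d against 5d it was 0.15 (SE 0.37), and 0.50 without that kidney.

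Zbtb16 had between 2 and 73 counts per kidney, the fewest of the 9 genes, and its values are correspondingly imprecise. Sham kidneys ranged from 1.7 to 7.76 CPM with a median of 3.34 CPM. Kidneys at 5d post-MI ranged from 0.698 to 22.3 CPM with a median of 5.16 CPM, and those at 28d from 1.12 to 10.3 CPM with a median of 4.45 CPM. The highest kidneys were 5d replicate 2 with 22.3 CPM and 5d replicate 9 with 15.3 CPM. The 5d group held both the lowest and the highest kidney of all 22. For Zbtb16 the log2 fold change was 1.06 (SE 0.54) at 5d and 0.41 (SE 0.64) at 28d against sham, and the value at 5d was 0.59 without 5d replicate 2. Without 28d replicate 7, the kidney with 10.3 CPM, the value at 28d was 0.0049.

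The receptor gene Nr3c1 varied little. It ranged from 64.5 to 92.8 CPM in sham kidneys (median 70.4 CPM), from 52.2 to 76.8 CPM at 5d (median 67.7 CPM) and from 67.9 to 83.8 CPM at 28d (median 71.1 CPM). The lowest of the 22 kidneys was 5d replicate 9, the kidney with the highest Fkbp5. The log2 fold change was −0.15 (SE 0.08) at 5d and 0.01 (SE 0.08) at 28d against sham, and 0.15 (SE 0.08) for 28d against 5d.

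The mean levels of Klf9 and Errfi1 differed between the groups by less than the range within each group. Klf9 ranged from 211 to 304 CPM in sham kidneys, from 222 to 304 CPM at 5d and from 181 to 265 CPM at 28d, with medians of 220, 270.5 and 237 CPM. Its log2 fold change was 0.17 (SE 0.09) at 5d and −0.05 (SE 0.10) at 28d against sham, and −0.21 (SE 0.10) for 28d against 5d, with 3 of 6 kidneys at 28d below every kidney at 5d. Errfi1 ranged from 238 to 448 CPM in sham kidneys, from 242 to 565 CPM at 5d and from 326 to 446 CPM at 28d, with medians of 313, 304 and 388.5 CPM. Its highest kidney was again 5d replicate 9, and no kidney at 28d lay above every sham kidney. Its log2 fold change against sham was 0.11 (SE 0.17) at 5d, −0.03 without 5d replicate 9, and 0.26 (SE 0.19) at 28d.

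Hsd11b1, which encodes the enzyme that regenerates active glucocorticoid, was the only one of the 9 genes for which 2 groups did not overlap. Its level ranged from 91.0 to 202 CPM in sham kidneys, with a median of 138 CPM. At 5d post-MI it ranged from 77.1 to 153 CPM, with a median of 129 CPM, and at 28d from 162 to 218 CPM, with a median of 175 CPM. All 6 kidneys at 28d lay above every kidney at 5d, while 1 of 6 lay above every sham kidney. For 28d against 5d its log2 fold change was 0.56 (SE 0.16), beside 0.38 (SE 0.16) for 28d against sham and −0.17 (SE 0.15) for 5d against sham. Over all genes tested, 28d kidneys lay above all 5d kidneys in 0.25% and below all of them in 0.0939%. The summed level of 7 proximal tubule genes was higher at 28d than in sham kidneys by 0.255 on the log2 scale (exact permutation test, two-sided, adjusted p = 0.00373). Against 5d it was higher by 0.288 (exact permutation test, adjusted p = 0.101). Between 86% and 91.7% of that sum was Kap, an androgen-regulated gene of the proximal tubule. Without Kap, a choice made after the values were seen, the difference was 0.0378 against sham (exact permutation test, adjusted p = 0.543 over 3 contrasts) and 0.157 against 5d (exact permutation test, adjusted p = 0.148). Across the 22 kidneys, with each group centred on its mean, Hsd11b1 correlated with the sum at r = 0.716, with Kap alone at r = 0.707 and with the other 6 genes at r = 0.508. These points share a library and its depth, and the part of the proximal tubule genes in the Hsd11b1 values was not tested. Lamb3, which overlaps Hsd11b1 on the opposite strand, had at most 45 counts in a kidney.

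The levels of the metallothionein genes rose and fell together across kidneys, and some kidneys at 28d were low in both. Mt1 ranged from 220 to 324 CPM in sham kidneys, from 239 to 340 CPM at 5d and from 157 to 311 CPM at 28d, with medians of 274, 300.3 and 235 CPM. Mt2 ranged from 74.7 to 132 CPM in sham kidneys, from 68.9 to 119 CPM at 5d and from 37.2 to 122 CPM at 28d, with medians of 83.6, 101 and 74.8 CPM. In both genes 3 of 6 kidneys at 28d lay below every sham kidney and the rest lay within the sham range. The log2 fold change against sham was 0.07 (SE 0.13) for Mt1 and 0.03 (SE 0.20) for Mt2 at 5d. At 28d it was −0.23 (SE 0.14) for Mt1 and −0.32 (SE 0.22) for Mt2. Without 28d replicate 2 these were −0.13 and −0.18, and without 28d replicate 1 Mt2 was −0.50. The lowest kidneys for both were 28d replicates 2 and 3, with 157 and 176 CPM of Mt1 and 37.2 and 46.0 CPM of Mt2.

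**Figure D1:**
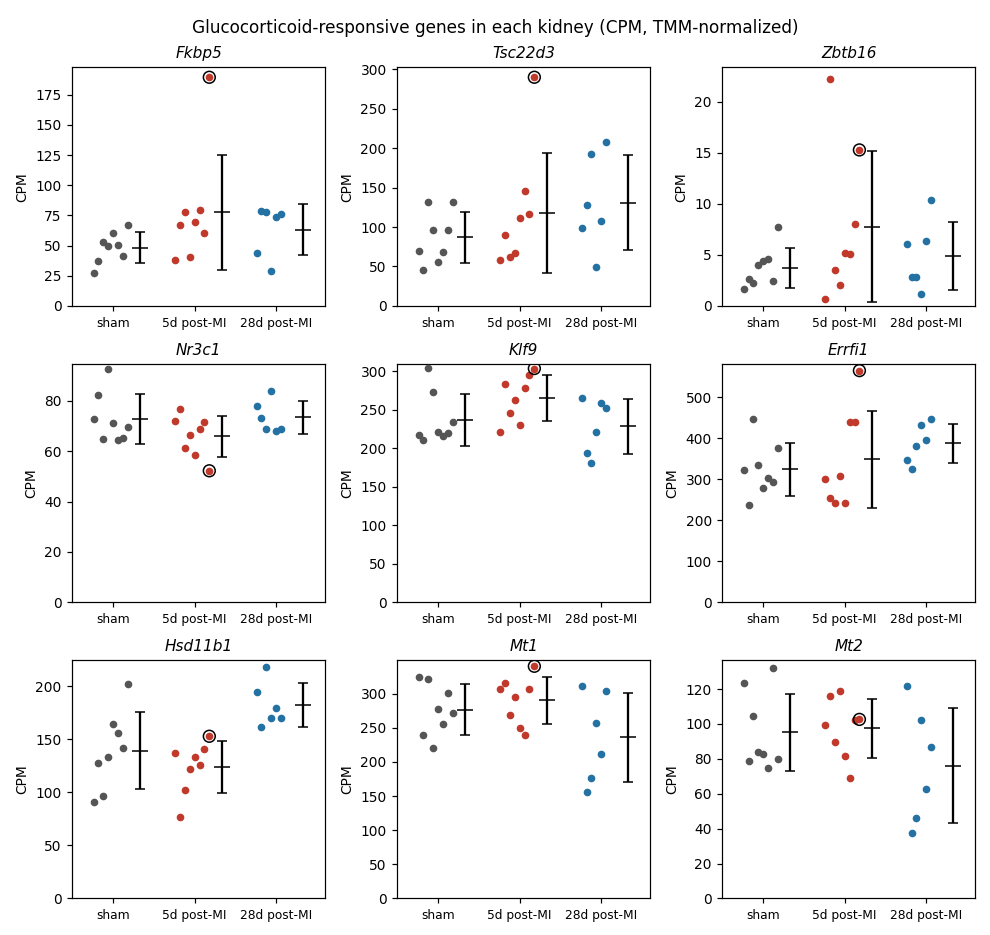
Level of each of the 9 genes in CPM (vertical axes, from 0) in sham kidneys (grey, n = 8), kidneys at 5d post-MI (red, n = 8) and kidneys at 28d post-MI (blue, n = 6). Each point is a kidney, bars are mean ± SD, and circles mark 5d replicate 9, which is the highest kidney in Fkbp5, Tsc22d3, Errfi1 and Mt1 and the lowest in Nr3c1.

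With p adjusted over all 12780 genes, the quasi-likelihood test of edgeR called none of the 9 genes in any contrast, and neither did DESeq2 or limma's voom. Of the 9, 1 had an unadjusted p under 0.05 at 5d against sham, 1 at 28d against sham and 3 at 28d against 5d, beside 7.9%, 8.68% and 9.05% of all genes tested. The share of all genes called was 0.0704% at 5d against sham, 0.0235% at 28d against sham and 0.415% at 28d against 5d, and since the genes were selected on these kidneys nothing is read from these counts. Groups without overlap were rare as well. Kidneys at 5d lay above all sham kidneys in 0.0391% of genes and below all of them in 0.0156%, and kidneys at 28d lay above all sham kidneys in 0.188% and below all of them in 0.0704%. Log2 fold changes had a median of 0.11 over the 9 genes at 5d against sham, 0.26 at 28d against sham and −0.21 at 28d against 5d. Over all genes the medians were 0.00018, −0.0012 and −0.0046.

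**Figure D2:**
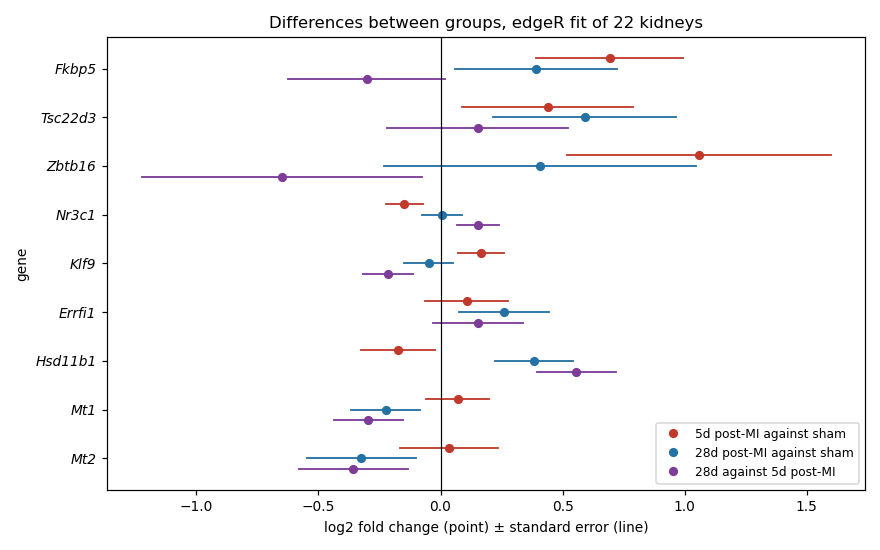
Log2 fold change (horizontal axis, points) with its standard error (lines) for the 9 genes in 3 contrasts from a single edgeR fit of 22 kidneys. Zbtb16, Fkbp5 and Tsc22d3 have the widest lines, and Hsd11b1 at 28d against 5d lies at 0.56 with a standard error of 0.16.

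A single kidney, 5d replicate 9, stood apart in these genes, and it was singled out after its values were seen. It had 3.92 times the sham mean of Fkbp5, 3.33 times that of Tsc22d3, 4.1 times that of Zbtb16 and 1.74 times that of Errfi1. Nr3c1 was at 0.716 times its sham mean, and Hsd11b1 and Mt2 were at 1.1 and 1.08 times. A further 38 genes known to respond to glucocorticoids were listed, of which 33 had enough counts to be tested. In this kidney 14 of the 33 (42.4%) were at their highest level of all 22 kidneys, while it held the highest level in 4.3% of all genes tested. No other kidney was the highest in more than 4 of the 33. The median ratio of the 33 genes to their sham mean was 0.32 on the log2 scale in this kidney and 0.01 over all genes.

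Sgk1 was the clearest of the 14. It had 288 CPM in 5d replicate 9, 3.3 times the sham mean of 87.4 CPM, and at most 206 CPM in another kidney. Other genes at their highest there had various roles. Pck1, the rate-limiting enzyme of gluconeogenesis, reached 2338 CPM beside a sham mean of 1239 CPM. Lpin1, a phosphatidate phosphatase, reached 135 CPM beside 67.9 CPM, and Angptl4, an inhibitor of lipoprotein lipase, 90.4 CPM beside 50.1 CPM. The cell cycle inhibitor gene Cdkn1a was at 14.7 CPM beside 6.41 CPM, the clock gene Per1 at 93.5 CPM beside 46.7 CPM and the glutamine synthetase gene Glul at 557 CPM beside 335 CPM. Rhob, Cebpd, Usp2, Cebpb, Nfkbia, Cdkn1c and Foxo1 completed the list. Txnip, which encodes an inhibitor of thioredoxin and of glucose uptake, was at its lowest of all kidneys, 178 CPM beside a sham mean of 328 CPM. Metabolic genes of the same list that were not at their highest included Gpt2 and Acer2 (rank 4 of 22), Pnpla2 (rank 6) and Pdk4 (rank 10). Irs2 was among the lowest there, at rank 20 and 0.69 times its sham mean. Dusp1 and Zfp36, which are induced by glucocorticoids but also by other stimuli, ranked the sixteenth and the seventeenth of 22 in this kidney.

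**Figure D3:**
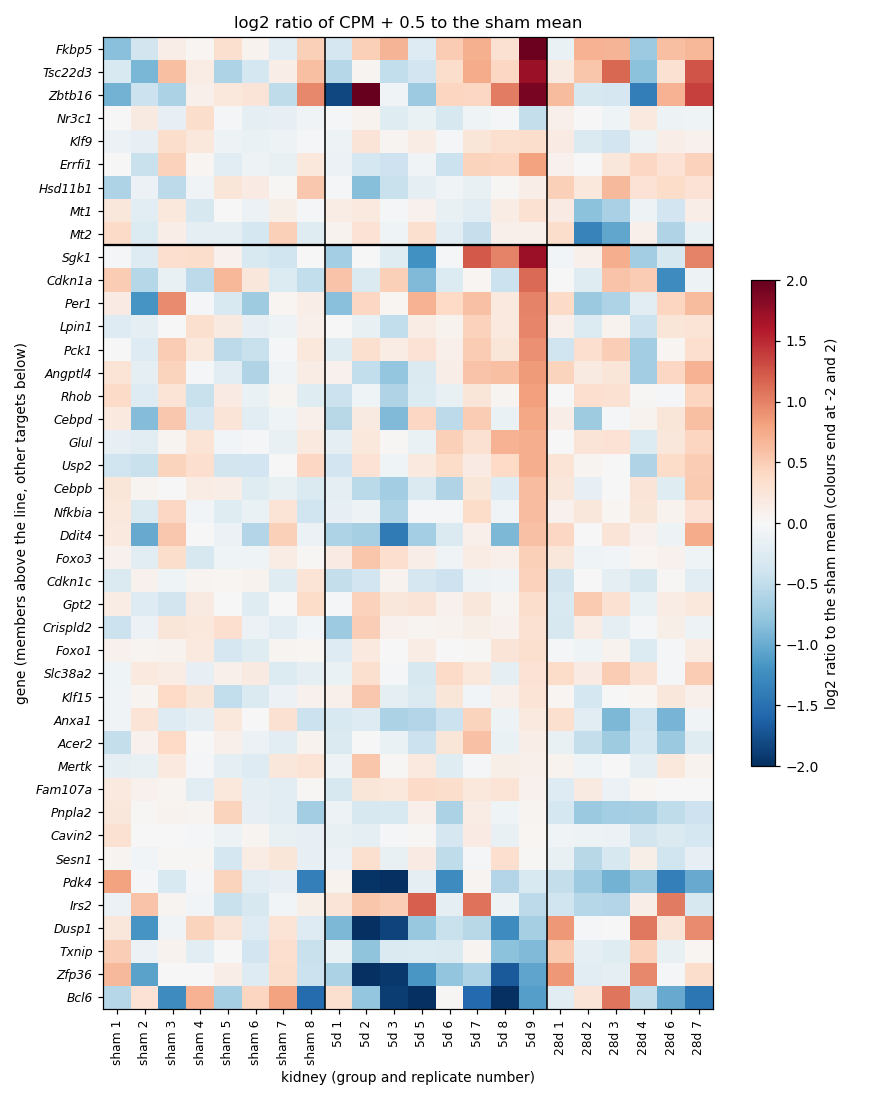
Log2 ratio of each kidney's level to the sham mean (colour, CPM + 0.5, colours end at −2 and 2) for the 9 genes (above the line) and 33 other glucocorticoid targets (below the line, ordered by their ratio in 5d replicate 9) in 22 kidneys (columns). The column of 5d replicate 9 is red over most rows, with Txnip, Zfp36, Dusp1 and Bcl6 among the blue exceptions.

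Some clock genes varied with Fkbp5 and Tsc22d3 across kidneys, and others did not. The ratio of Per2 to Nr1d1, which both encode repressors in the circadian clock, was used to describe how the kidneys differed in clock gene levels. It does not place a kidney at an hour, was chosen after the values were seen, and the hour of collection is not given in the sources used here. The log2 ratio ranged from −2.64 to 0.781 in sham kidneys (median −2.09), from −3.01 to 2.65 at 5d (median −0.464) and from −2.79 to 3.2 at 28d (median 0.706). The highest values were 3.2 in 28d replicate 2, 2.72 in 28d replicate 3 and 2.65 in 5d replicate 9. With each group centred on its mean, the ratio correlated with Tsc22d3 at r = 0.839, with Fkbp5 at r = 0.773, with Zbtb16 at r = 0.5 and with Mt2 at r = −0.509 (n = 22 kidneys). Without 5d replicate 9 the values for Tsc22d3 and Fkbp5 were 0.81 and 0.734. These genes share libraries and depth, so the correlations are a description. The 2 kidneys with the highest ratio had 78.4 and 77.7 CPM of Fkbp5, well under the 189 CPM of 5d replicate 9. They also differed from it in the clock gene Arntl, with 8.59 and 11.8 CPM beside 1.53 CPM.

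With the ratio as a covariate in the edgeR fit, the log2 fold changes of Fkbp5 against sham were 0.26 at 5d and −0.22 at 28d, in place of 0.69 and 0.39. Those of Tsc22d3 were −0.12 and −0.18, in place of 0.44 and 0.59. The direction thus changed for Tsc22d3 at both times and for Fkbp5 at 28d, and it also changed for Zbtb16 at 28d (−0.15) and for Errfi1 at 5d (−0.02). Hsd11b1 at 28d against 5d was 0.52, in place of 0.56. Among the single clock genes Cry1 correlated with Fkbp5 at r = 0.781, Per2 at r = 0.753, Cry2 at r = 0.603 and Nfil3 at r = 0.563. Nr1d1 ran the other way, at r = −0.659. Weaker values were 0.451 for Hlf, 0.288 for Per1, −0.296 for Nr1d2 and −0.364 for Bhlhe41. Others did not follow Fkbp5, such as Arntl (r = 0.0946), Tef (r = 0.0345), Bhlhe40 (r = 0.0421), Per3 (r = −0.104), Ciart (r = −0.111) and Clock (r = −0.147). The sum of the whole clock list gave r = 0.135. That sum adds genes that ran in opposite directions, so it does not show how the single genes varied with Fkbp5. Per2 was at its highest of all kidneys in 5d replicate 9, with 47.65 CPM, as were Per1 with 93.47 CPM and Nfil3 with 7.637 CPM. Bhlhe41 was at its lowest there, with 1.833 CPM. None of the 15 clock genes tested was called against sham by edgeR, and 1 had an unadjusted p under 0.05, Cry1 at 28d. Whether the ratio itself responds to the hormone was not tested, so the fit with this covariate is a description. Whether the clock accounts for any part of the members' values was not tested either.

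Across kidneys, Mt1 and Mt2 were the most alike pair of the 9 genes, followed by Fkbp5 and Tsc22d3. With each group centred on its mean, the log2 levels of Fkbp5 and Tsc22d3 correlated at r = 0.771 over 22 kidneys and at r = 0.678 without 5d replicate 9. Fkbp5 and Zbtb16 correlated at r = 0.663, and Tsc22d3 and Errfi1 at r = 0.641. Nr3c1 ran the other way, at r = −0.567 with Fkbp5 and r = −0.503 with Tsc22d3. Klf9 correlated with Fkbp5 at r = 0.235 and with Errfi1 at r = 0.591. Mt1 and Mt2 correlated at r = 0.893, while Mt2 and Fkbp5 gave r = −0.472. Of the 33 other targets, 7 correlated with Fkbp5 at r above 0.5, beside 3.64% of 11321 genes, and 1, Txnip, at r below −0.5, beside 3.21%. Cdkn1c (r = 0.79), which encodes a cell cycle inhibitor, Glul (r = 0.763) and Sgk1 (r = 0.708) were the most alike of them. All kidneys share the sequencing method and differ in depth, and no p is attached to these values.

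The genes outside the 9 whose pattern was most like that of Fkbp5 were Gldc, Nat8f5, Tnfrsf21, Rybp, Gm15459, Gm7232, Susd3 and Alas1, with r from 0.876 to 0.816 over 22 kidneys. Gldc encodes the glycine cleavage enzyme of mitochondria, Tnfrsf21 a death receptor, Rybp a Polycomb component and Alas1 the rate-limiting enzyme of heme synthesis. Gldc had 168 CPM in 5d replicate 9 and at most 106 CPM in another kidney, and Alas1 had 321 CPM and at most 225 CPM. In Nat8f5, Gm15459 and Gm7232 another kidney was higher than 5d replicate 9. Without that kidney, r was still between 0.762 and 0.863 for the 8 genes.

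**Figure D4:**
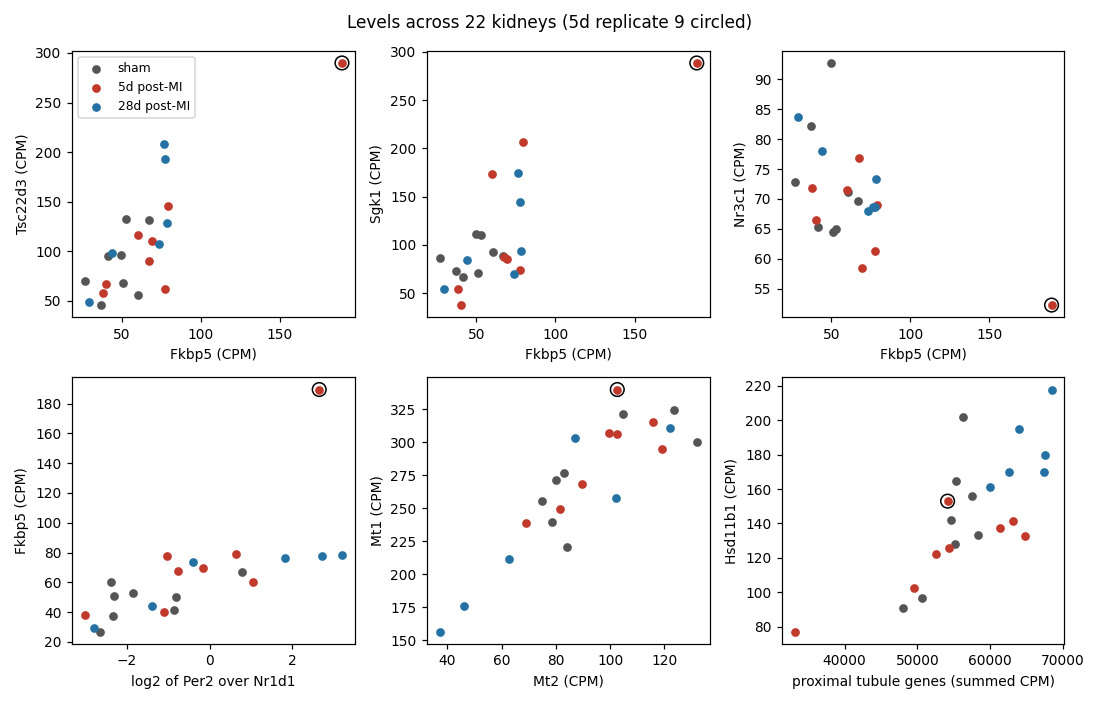
Levels of pairs of measurements in 22 kidneys (points, grey sham, red 5d, blue 28d post-MI, circle 5d replicate 9), in CPM except for the log2 ratio of Per2 to Nr1d1. Fkbp5 rises with Tsc22d3, Sgk1 and the clock ratio and falls with Nr3c1, Mt1 rises with Mt2, and Hsd11b1 rises with the summed proximal tubule genes.

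The other glucocorticoid targets showed no difference from sham that passed the test. Of the 33, edgeR called 0 at 5d against sham, where 3 were higher and 3 lower at an unadjusted p under 0.05. At 28d against sham it also called 0, with 2 higher and 4 lower at an unadjusted p under 0.05. Over all genes tested, 7.9% and 8.68% had such a p at the 2 times. DESeq2 called 1 gene at each time, Zfp36 at 5d and Pnpla2 at 28d, and limma's voom called 0 at each. The median log2 fold change was 0.10 at 5d and 0.03 at 28d, beside 0.00018 and −0.0012 over all genes. The lowest p-values at 5d against sham belonged to Zfp36 (log2 fold change −1.15, SE 0.27, edgeR adjusted p = 0.133), Dusp1 (−0.97, SE 0.26, adjusted p = 0.275) and the transcription factor gene Foxo3 (0.26, SE 0.09, adjusted p = 0.427). At 28d they belonged to the lipase gene Pnpla2 (−0.55, SE 0.15, edgeR adjusted p = 0.259) and the amino acid transporter gene Slc38a2 (0.33, SE 0.11, adjusted p = 0.361). Fam107a, Glul and Txnip at 5d, and Dusp1, Acer2 and Pdk4 at 28d, were next, with edgeR adjusted p from 0.452 to 0.59.

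Between 28d and 5d post-MI, 2 of the 33 targets were called, both higher at 28d, beside 0.415% of all genes tested. Dusp1, a phosphatase that switches off MAP kinases, ranged from 54.6 to 169 CPM at 5d with a median of 129 CPM, and from 222 to 477.5 CPM at 28d with a median of 346 CPM. All 6 kidneys at 28d lay above every kidney at 5d. The log2 fold change was 1.55 (SE 0.27, edgeR adjusted p = 0.00886). Zfp36, which promotes decay of inflammatory mRNA, had a median of 120 CPM at 5d and 292 CPM at 28d, again without overlap (log2 fold change 1.52, SE 0.29, edgeR adjusted p = 0.0142). With only these 2 groups in the fit, the adjusted p of edgeR was 0.0517 for Dusp1 and 0.0577 for Zfp36. Both genes also belong to a list of immediate early genes, of which 11 of 14 were called higher at 28d than at 5d. These 11 include Dusp1 and Zfp36, as does the summed level of the list, so neither is separate from these 2 genes. The summed level of that list was lower at 5d than in sham by a log2 of −1.15 (exact permutation test, adjusted p = 0.00373) and higher at 28d than at 5d by 1.57 (exact permutation test, adjusted p = 0.00373). The part of a general early response in the values of Dusp1 and Zfp36 was not tested.

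The genes of the receptor complex gave a similar picture. Of 13 genes for the chaperones, coregulators and the mineralocorticoid receptor, edgeR called 0 against sham at either time, with 4 at 5d and 5 at 28d at an unadjusted p under 0.05 (7.9% and 8.68% over all genes). Against 5d, 2 were called higher at 28d, beside 0.415% of all genes called in that contrast. Dnajb1, an Hsp40 co-chaperone, was higher at 28d than at 5d by a log2 of 1.05 (SE 0.20, edgeR adjusted p = 0.0178). Its median was 37.8 CPM at 5d and 81.4 CPM at 28d, with all 6 kidneys at 28d above every kidney at 5d. Sham kidneys ranged from 30.05 to 105.7 CPM, and 5d against sham differed by −0.57 (SE 0.19, edgeR adjusted p = 0.444). For 28d against 5d, the edgeR adjusted p of Dnajb1 was 0.0579 without 28d replicate 7 and 0.0919 with the replicate number as a block. Hsp90aa1, the inducible Hsp90 that holds the receptor ready for hormone, was higher at 28d than at 5d by 0.47 (SE 0.10, edgeR adjusted p = 0.0249). Its median was 140 CPM at 5d and 197 CPM at 28d, with 3 of 6 kidneys at 28d above every kidney at 5d. Sham kidneys ranged from 146.5 to 172.4 CPM. The call of Hsp90aa1 was kept in 24 of 33 fits and lost when 5d replicates 2, 3, 5 or 8 or 28d replicates 2, 3 or 7 were left out singly, when the 3 kidneys rich in adrenal cortex genes were left out, and with only 2 groups in the fit, with the highest edgeR adjusted p of any fit at 0.158. Fkbp4, the co-chaperone that competes with the Fkbp5 product in the receptor complex, had 112 CPM at the sham median and 140 CPM at 28d (log2 fold change 0.30, SE 0.07, edgeR adjusted p = 0.0894). It was called in 5 of 33 fits, which were those with no filter (edgeR adjusted p = 0.00585), with the replicate block, with DESeq2, and without sham replicate 8 or 28d replicate 1. Nr3c2, the mineralocorticoid receptor gene, had a median of 4.79 CPM in sham and 7.93 CPM at 5d (0.50, SE 0.17, edgeR adjusted p = 0.425).

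**Figure D5:**
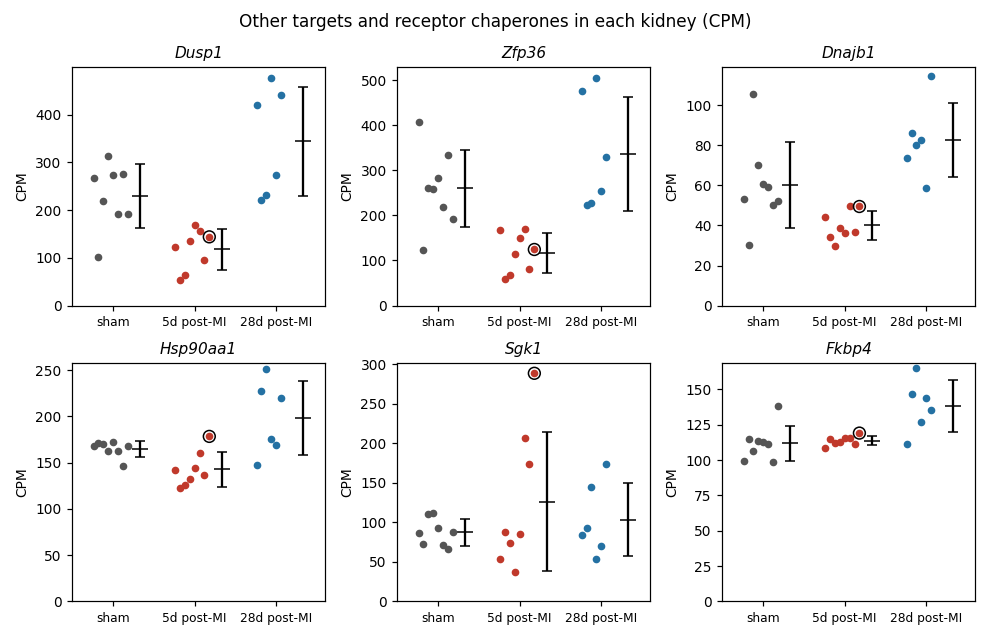
Level in CPM (vertical axes, from 0) of the glucocorticoid targets Dusp1, Zfp36 and Sgk1 and of the receptor chaperone genes Dnajb1, Hsp90aa1 and Fkbp4 in each kidney, with mean ± SD and a circle at 5d replicate 9. Dusp1, Zfp36 and Dnajb1 separate 28d from 5d post-MI without overlap, and Sgk1 is highest in 5d replicate 9.

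Genes that neighbour the members in their pathways were not called in any contrast by the edgeR fit of all 22 kidneys with the filter on low counts. These were 6 genes of steroid metabolism and transport, 11 of aldosterone-sensitive sodium transport, 7 of metal handling, 10 of the EGF receptor and its feedback, and 9 Kruppel-like factors. At an unadjusted p under 0.05 there were 0, 2, 1, 2 and 4 of them at 5d against sham, 0, 2, 2, 2 and 2 at 28d against sham, and 0, 1, 2, 3 and 0 at 28d against 5d. The shares over all genes were 7.9%, 8.68% and 9.05%, and nothing particular to these lists is read from the counts. Hsd11b2, which inactivates glucocorticoid in the distal nephron, differed by 0.10 (SE 0.07, edgeR adjusted p = 0.788) at 5d and 0.14 (SE 0.08, adjusted p = 0.631) at 28d. Slc30a1, a zinc exporter that is induced by metals together with metallothioneins, had 56.4 ± 3.78 CPM in sham (SD, n = 8) and 68.7 ± 7.54 CPM at 5d (SD, n = 8), with 6 of 8 kidneys above every sham kidney (log2 fold change 0.28, SE 0.07, edgeR adjusted p = 0.119). At 28d against sham, where the mean levels of Mt1 and Mt2 were lower, Slc30a1 was higher by 0.28 (SE 0.07, edgeR adjusted p = 0.176). Nedd4l, the ubiquitin ligase that removes the epithelial sodium channel and is inhibited by the SGK1 kinase, had 59.6 ± 3.92 CPM in sham (SD) and 71.3 ± 6.04 CPM at 5d (SD), with 7 of 8 kidneys above every sham kidney (0.25, SE 0.06, edgeR adjusted p = 0.12). Some of these genes were called in a few of 33 fits, namely Slc30a1 in 2 and Nedd4l and Egf in 1 at 5d against sham, Slc30a1 and Kcnj1 in 1 at 28d against sham, and Spry2 in 3 and Hmox1 in 2 at 28d against 5d.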

How the data were processed

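The authors sequenced kidney RNA by MACE with unique molecular identifiers and deposited, for each kidney, a count per gene and a normalized value. Only the deposited counts were used, and columns of authors' comparisons were not used. Per the labels, trimming, alignment and counting used cutadapt, Bowtie2 and HTSeq. The genome build is mm39 in the submitters' notes and mm10 in the study's methods, and the strand setting is not given in the sources used here. The table has 48 columns of values, of which 22 were used. Columns of 2 kidneys share a name and were left unassigned.

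Counts were tested with edgeR 4.0.16 in R 4.3.3 (TMM, filterByExpr with a minimum count of 10, robust quasi-likelihood F test, 3 groups in a single fit, Benjamini-Hochberg adjustment over 12780 genes, threshold 0.05). DESeq2 1.42.0, limma 3.58.1 and the other fits listed in the closing section were alternatives. Marker list sums were compared by two-sided exact permutation tests on log2(CPM + 0.5), adjusted over 24 tests. Correlations used log2 CPM with a prior count of 2. The edgeR step was tested on simulated data. The 9 genes and all gene lists were chosen with earlier results of these data known. Named genes were the 9 members, listed genes that were called, the listed genes with the lowest p in each direction, and the 8 genes of at least 5 CPM most like Fkbp5. Replicates are separate kidneys, and no 2 libraries of a group agreed within sampling noise (chi-square per degree of freedom 1.77 to 8.14 over 71 pairs). Symbols were matched for 51948 of 56941 identifiers.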

Additional observations from a re-analysis of the deposited data

Results flagged for a closer look

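In 168 groups of kidneys (56 genes in 3 groups), the highest or lowest kidney stood apart by Dixon's criterion in 11, and chance alone marks about 1 in 20. Among the 9 genes these were Fkbp5 in 5d replicate 9 (189.4 CPM, next 79.1 CPM), Tsc22d3 in the same kidney (289.9 CPM, next 146 CPM) and Zbtb16 in sham replicate 8 (7.764 CPM, next 4.55 CPM). Among the listed genes, Hsd11b2 (189.1 CPM) and Fkbp4 (138.6 CPM) were high in sham replicate 8, and Hmox1 (36.82 CPM) in sham replicate 2. Abcg2 was high in sham replicate 4 (310.1 CPM), Kcnj1 in 5d replicate 2 (150.6 CPM), Scnn1b in 28d replicate 2 (53.35 CPM) and Bhlhe41 in 28d replicate 1 (12.47 CPM). Hsp90aa1 was low in sham replicate 7 (146.5 CPM).

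The effects at 28d and 5d post-MI differed in the edgeR test of 28d against 5d for 13 listed genes, all higher at 28d. The log2 differences were 1.522 for Zfp36, 1.551 for Dusp1, 1.048 for Dnajb1 and 0.4734 for Hsp90aa1. For the other immediate early genes they were 1.953 for Junb, 2.06 for Atf3, 2.137 for Fos, 1.693 for Jun, 0.3854 for Jund, 2.102 for Egr1, 2.25 for Ier2, 1.998 for Nr4a1 and 1.965 for Btg2. None of the 9 glucocorticoid-responsive genes was among them.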

How the results depend on the processing

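None of the 9 genes was called in any of the 33 fits of a contrast, and since they were selected on these kidneys nothing is read from this. Of their log2 fold changes, 268 under other settings and 594 with 1 kidney left out moved by less than 1 SD between kidneys, and 2 moved more, Fkbp5 (−0.22) and Tsc22d3 (−0.18) at 28d against sham with the clock ratio as a covariate, a setting chosen after seeing the data. Small differences turned direction without exceeding that SD. Nr3c1 at 28d against sham turned in 6 fits (to −0.03 at most), Mt2 at 5d in 5 (to −0.10), Klf9 at 28d against sham in 2 (to 0.0089) and Errfi1 at 5d in 3 (to −0.03). At 28d against 5d Fkbp5 turned in 2 (0.04 without 5d replicate 9, 0.11 with the replicate block) and Tsc22d3 in 2 (−0.04 without 28d replicate 7, −0.06 with the clock ratio).

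At 5d against sham the 9 calls became 80 with no filter, 36 with DESeq2, 5 with limma's voom, 2 with only 2 groups, 2 without the 3 kidneys rich in adrenal cortex genes, 2 with the clock ratio, and 1 with either the adrenal cortex or the adipocyte list as a covariate. With 1 kidney left out they ranged from 1 (without sham replicate 2) to 38 (without 5d replicate 1). At 28d against sham the 3 calls became 94, 33, 5 and 31 in the first 4 of these settings, 1 without the 3 kidneys and 1 with the adrenal cortex covariate, and ranged from 0 (without 28d replicate 2) to 29 (without sham replicate 8). At 28d against 5d the 53 calls became 160 with no filter, 91 with DESeq2 and 26 with only 2 groups, and ranged from 41 to 84. With the replicate number as a block, the calls were 2, 24 and 80 in the 3 contrasts. Same-numbered kidneys did not deviate together (r from −0.127 to 0.0899, 0 pairs above 0.1), so the pairing is by number only. The cause of these shifts was not tested.

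The other glucocorticoid targets called were 1 with DESeq2 at each time against sham, and 1 at 28d with no filter and, among fits with 1 kidney left out (0 to 1), without sham replicate 8. At 28d against 5d they were 0 with only 2 groups. Directions turned for Fosl2 at 28d against 5d (0.026 with the adrenal cortex covariate, 0.059 with the clock ratio, −0.1124 to 0.0946 with 1 kidney left out), for Scnn1b at 5d (−0.05731 to 0.0048 with 1 kidney left out) and for Cry1 at 28d against sham (−0.163 with the clock ratio). Scaled by total count, the clock list sum at 28d against sham was −0.0194 and the glomerulus and endothelium sum at 28d against 5d was −0.0252. The likeness of Zbtb16 to Fkbp5 was 0.495 by Spearman's rho, and without the 2 kidneys farthest from the median of Fkbp5 it was 0.125 for Errfi1 and 0.0884 for Hsd11b1. Depth limits Zbtb16 most, where 3 counts correspond to 0.809 to 1.33 CPM in a kidney.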
